A study of Mus musculus with 9 samples.

Results

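Collagen chain genes were the genes of the count table whose symbol is Col, a type number, the letter a and a chain number, with nothing before or after. They were 44 of 56748 genes. Their counts came from RNA sequencing of polyadenylated RNA in 9 libraries, 3 biological replicates of reactive cultures, 3 of injured cortex and 3 of uninjured cortex. All mice were wild type, of the C57BL/6J strain and 2 to 3 months old, and the tissue was cerebral cortex. Stab wounds were set as a grid with a lancet in the animals used for cultures and for injured cortex. For cultures the lesion core was cut out, dissociated and kept in DMEM/F12 with B27 and 10% fetal bovine serum, and the whole unsorted culture was harvested. Cells of injured and uninjured cortex were sorted straight after papain dissociation, a sort that discarded debris and dead cells and also neurons, gated as CD171+/ACSA-2-. Sources differ on timing: the labels put dissection at 1 day after injury with 6 days in vitro, and the series text puts injured cortex at 3 days and cultures at 24 h with 8 days in vitro. Cultures and cortex therefore differed in time, serum and sorting as well as in growth outside the brain, and these cannot be told apart.

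Collagens are secreted or membrane proteins in which 3 chains wind into a triple helix. Fibrillar chains build the tensile fibres of connective tissue, type IV chains build the sheet of every basement membrane, and the FACIT chains (fibril-associated collagens with interrupted triple helices) decorate fibres. In the healthy brain fibrillar collagen lies mainly in the meninges and around vessels, and the vascular basement membrane holds type IV collagen, while fibroblasts and vessel-associated cells can lay down fibrillar collagen in a wound.

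Promoter windows from RefSeq, GRCm38.p6, cover 250 bases before to 50 bases after the start of a gene and matched 35 of the 44 genes by symbol. Col4a1 and Col4a2 are shown because they were the most abundant pair of partner chains in the cultures and lie head to head on opposite strands, so that their windows share 78 bases. Col8a1 is shown because it had the largest difference between cultures and injured cortex, and Col11a1 because it was higher in injured than in uninjured cortex. Sequences run 5′ to 3′ on the strand of the gene, and capitals mark CCAAT, or ATTGG where it lies on the other strand.
Col4a1: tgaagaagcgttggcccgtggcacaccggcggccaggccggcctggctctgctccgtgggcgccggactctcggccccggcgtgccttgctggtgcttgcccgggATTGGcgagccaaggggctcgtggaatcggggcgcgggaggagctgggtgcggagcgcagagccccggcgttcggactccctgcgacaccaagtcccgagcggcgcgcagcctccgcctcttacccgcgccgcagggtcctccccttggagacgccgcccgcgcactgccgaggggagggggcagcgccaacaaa
Col4a2: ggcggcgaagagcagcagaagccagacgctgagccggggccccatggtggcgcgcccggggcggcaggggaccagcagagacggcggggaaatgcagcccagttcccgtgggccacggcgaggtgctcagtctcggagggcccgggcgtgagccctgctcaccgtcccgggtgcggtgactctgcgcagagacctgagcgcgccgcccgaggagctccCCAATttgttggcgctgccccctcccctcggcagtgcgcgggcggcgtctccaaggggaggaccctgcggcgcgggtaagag
Col8a1: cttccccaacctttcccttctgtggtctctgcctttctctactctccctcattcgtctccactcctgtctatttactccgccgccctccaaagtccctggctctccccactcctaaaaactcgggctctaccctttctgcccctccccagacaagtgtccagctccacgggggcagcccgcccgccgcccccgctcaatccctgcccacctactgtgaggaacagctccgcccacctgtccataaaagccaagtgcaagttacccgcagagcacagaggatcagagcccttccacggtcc
Col11a1: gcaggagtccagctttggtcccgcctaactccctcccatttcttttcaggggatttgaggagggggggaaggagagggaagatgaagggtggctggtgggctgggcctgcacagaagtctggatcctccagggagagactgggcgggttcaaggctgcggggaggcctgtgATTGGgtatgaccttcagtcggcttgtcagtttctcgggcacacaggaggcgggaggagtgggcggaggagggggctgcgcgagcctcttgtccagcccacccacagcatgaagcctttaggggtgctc

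These windows are chr8:11312777-11313076 on the minus strand for Col4a1, chr8:11312555-11312854 on the plus strand for Col4a2, chr16:57754688-57754987 on the minus strand for Col8a1 and chr3:114030290-114030589 on the plus strand for Col11a1. Col4a1, Col4a2 and Col11a1 each held 1 CCAAT match, and Col8a1 held none. Searched on both strands, CCAAT was found in 12 of the 35 collagen windows, 34.3%, and in 37.9% of all 27025 promoter windows of the table. TATAAA was found in 14.3% of the collagen windows and 14.2% of all windows, TGANTCA in 2.86% and 7.93%, and CATTCC in 11.4% and 14.6%. These matches describe letters only, and no match says only that the letters are not in the window.

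Libraries held 16667883 to 24302770 counts in cultures, 20389561 to 21135163 in injured cortex and 12205049 to 18577561 in uninjured cortex, and every gene ratio below rests on 3 libraries a group. Some libraries stood apart. Injured replicate 3 was the highest injured library in 32 of the 35 collagen genes tested, 91.4%, against 43.2% of all genes, and uninjured replicate 3 the highest uninjured library in 27, 77.1%, against 35.4% of all genes. Culture replicate 1 was the highest culture in 22, 62.9%, against 36% of all genes. Uninjured replicates 2 and 3 also held 175 and 146 CPM (counts relative to the library total) over 1770 olfactory and vomeronasal receptor genes, which cortex is not known to use, against 14.3 to 43.96 CPM in the other 7 libraries. Their part in the collagen values was not tested.

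Summed over the 44 genes, collagen took 1238, 619.9 and 809.7 CPM in the cultures, against 77.8, 66.1 and 320 CPM in injured cortex and 86.2, 151 and 257 CPM in uninjured cortex. Every culture lay above every cortex library, and the 2 cortex groups overlapped. A higher sum in a bulk library may come from more cells of a type or from more RNA per cell, which cannot be told apart here. Of the 44 genes, 10 reached a mean of 20 CPM, after TMM normalisation of library sizes, in cultures: Col4a1, Col4a2, Col18a1, Col5a2, Col3a1, Col5a1, Col1a2, Col1a1, Col8a1 and Col12a1. These 10 took 92.5% to 93.3% of collagen counts in cultures, 28.2% to 34.6% in injured cortex and 24.8% to 27.1% in uninjured cortex. Col9a3 and Col27a1 together took 0.0446% to 0.282% in cultures, 30.1% to 37.7% in injured cortex and 36.7% to 45.2% in uninjured cortex.

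**Figure D1:**
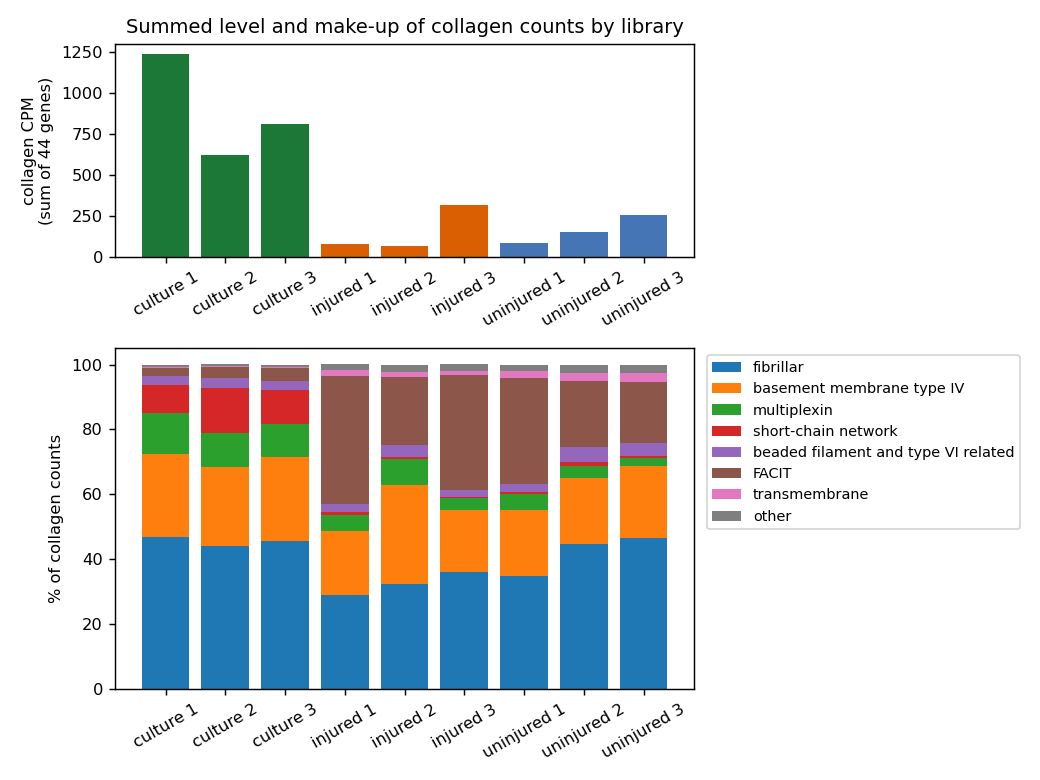
Upper panel: CPM summed over the 44 collagen genes in each library (bars, linear axis from 0). Lower panel: percent of each library's collagen counts that falls in each structural subfamily. The FACIT share is 2.39% to 4.10% in cultures, 21.0% to 39.6% in injured cortex and 18.9% to 32.7% in uninjured cortex, and the short-chain share 8.49% to 14.0%, 0.473% to 0.817% and 0.507% to 1.18% in the same order of groups.

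Levels were divided by exon length so that different genes could be compared roughly. Per kilobase of exon, Col4a1 stood first in cultures at 26.1 ± 11.9 TMM-normalised CPM per kb (mean ± SD, n = 3), before Col18a1 at 19.4 ± 9.29 and Col5a2 at 16.9 ± 1.85, which did not differ beyond their spread. In injured cortex Col9a3 stood first at 6.03 ± 4.70 CPM per kb, before Col4a1 at 1.99 ± 1.13. In uninjured cortex Col9a3 was again first at 4.97 ± 0.401 CPM per kb, before Col27a1 at 2.54 ± 1.30 and Col4a1 at 1.68 ± 0.849. Exon lengths are GENCODE unions on GRCm38, not the build of the counts. A union takes in the exons of every annotated transcript and can exceed the RNA expressed, so ranks and ratios per kb are approximate.

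Cultures were compared with each cortex group with edgeR's quasi-likelihood test, which fits all 18093 genes with enough counts and adjusts p by Benjamini-Hochberg over all of them. The question is how a lesion core in culture differs from the sorted cells of the brain. Of the 44 collagen genes, 35 passed the filter on low counts. Against injured cortex, 17 were higher in cultures, 9 were lower and 9 were not called at an adjusted p of 0.05. Of all genes 50.1% were called, 20% higher and 30.1% lower. The median collagen log2 fold change was 0.98, and the median of all genes was -0.19. Against uninjured cortex, 16 were higher, 11 lower and 8 not called, beside 60.5% of all genes called, 27.5% higher and 33.1% lower, with a collagen median of 1.12 and a median over all genes of -0.17. In 17 collagen genes every culture was above every injured library and in 9 every culture was below, where 25.8% and 33.8% of all genes, together 59.7%, did so. Against uninjured cortex these were again 17 and 9 genes, where the shares of all genes were 32.1% and 37.1%, together 69.2%. The 2 comparisons share the culture libraries and are not independent. Each fit was repeated under 20 alternatives. Of the 17 higher calls against injured cortex 14, and of the 9 lower calls 8, were made in each fit that tested the gene, and against uninjured cortex 13 of 16 and 5 of 11. A gene could pass the filter through the group in which it is high, so the counts do not describe all 44.

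**Figure D2:**
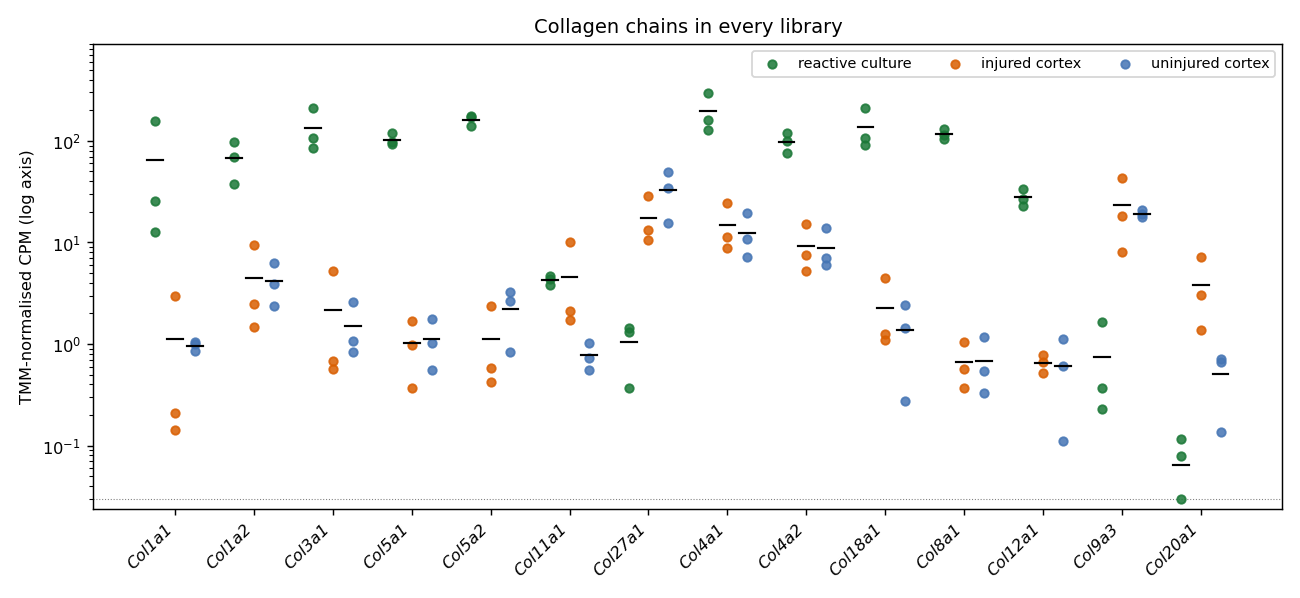
TMM-normalised CPM (log axis) of 14 collagen genes in every library, with group means as black bars and 3 libraries a group. The dotted line at the bottom stands for 0 counts. The 10 genes abundant in cultures sit between 12.6 and 295 CPM there, above all 6 cortex libraries, while Col9a3, Col27a1 and Col20a1 sit lowest in cultures.

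Among fibrillar chains, Col1a1, Col1a2, Col3a1, Col5a1 and Col5a2 were higher in cultures. Col1a1, the main chain of type I collagen, had 159, 12.6 and 25.4 TMM-normalised CPM in the cultures, against 0.141, 0.209 and 2.99 in injured cortex and 0.993, 0.853 and 1.04 in uninjured cortex. Culture replicate 1 was far above the other cultures, yet each culture was above each cortex library. The log2 fold change of Col1a1 was 5.77 ± 1.09 (SE) over injured cortex, adjusted p 0.00103 (edgeR), and 6.09 ± 1.13 over uninjured cortex, adjusted p 0.000633. Without culture replicate 1 these were 4.03 and 4.32, and without injured replicate 3 the first was 8.52, each still called. Its partner chain Col1a2 had 97.7, 37.5 and 69.8 CPM in cultures, against 2.50, 1.46 and 9.51 in injured cortex and 2.37, 3.86 and 6.21 in uninjured cortex, with log2 fold changes of 3.90 ± 0.63, which was 5.10 without injured replicate 3, and 4.04 ± 0.64. Groups did not overlap between cultures and cortex. As protein, the type I heterotrimer holds more Col1a1 than Col1a2 chains, which an RNA ratio does not measure. The RNA ratio of Col1a1 to Col1a2 per kb of exon was 3.08 in culture replicate 1 but 0.638 and 0.689 in replicates 2 and 3. It depends on exon lengths of 6563 bases for Col1a1 and 12426 for Col1a2, which are unions of all annotated exons.

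Col3a1, the single chain of type III collagen, had 209, 85.6 and 106 CPM in cultures, against 0.565, 0.680 and 5.27 in injured cortex and 0.827, 1.08 and 2.62 in uninjured cortex. It was 5.88 ± 0.78 higher on the log2 scale than in injured cortex and 6.49 ± 0.82 higher than in uninjured cortex, differences of 7.74 without injured replicate 3 and 7.10 without uninjured replicate 3. Col5a1 and Col5a2, which nucleate collagen fibrils and set their width, were even across the cultures. Col5a1 had 119, 93.5 and 97.0 CPM in cultures, against 1.70, 0.366 and 0.985 in injured cortex and 0.552, 1.03 and 1.77 in uninjured cortex. Col5a2, which lies beside Col3a1 on chromosome 1, had 174, 142 and 170.4 CPM in cultures, against 0.424, 0.575 and 2.38 in injured cortex and 0.827, 2.65 and 3.23 in uninjured cortex. Against injured cortex the log2 fold change was 6.64 ± 0.48 for Col5a1 (adjusted p 5.97e-07) and 7.09 ± 0.62 for Col5a2 (adjusted p 3.05e-06; 8.33 without injured replicate 3), and against uninjured cortex 6.54 ± 0.48 and 6.18 ± 0.59. Of type V, the remaining chain Col5a3 was not called in either comparison, at log2 fold changes of 0.98 and 1.13.

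Another pair of fibrillar chains went the other way. Col27a1, a chain of thin fibrils known from cartilage, had 0.368, 1.44 and 1.33 CPM in cultures, against 10.6, 13.1 and 28.5 in injured cortex and 15.6, 34.5 and 49.3 in uninjured cortex. Cultures lay below all 6 cortex libraries, with log2 fold changes of -4.06 ± 0.58 (adjusted p 0.000145) and -4.99 ± 0.60 (adjusted p 2.31e-05). Col11a2, a type XI chain, was also lower, with log2 fold changes of -4.79 ± 1.005 (-3.03 without injured replicate 3) and -5.24 ± 1.013 (-4.45 without uninjured replicate 3). Col11a1, the other type XI chain measured beside it, stood above uninjured cortex in cultures by 2.46 ± 0.64 on the log2 scale (adjusted p 0.00576) but was not called against injured cortex (-0.12 ± 0.58). With uninjured replicates 2 and 3 left out, Col11a1 was not called against uninjured cortex (2.94, adjusted p 0.0553). Col2a1, the cartilage chain, was not called in either comparison, and Col24a1 was not tested.

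In the basement membrane group, the partner chains Col4a1 and Col4a2 were higher in cultures. Col4a1 had 295, 127 and 162 CPM in cultures, against 8.76, 11.3 and 24.5 in injured cortex and 7.11, 10.9 and 19.5 in uninjured cortex. Col4a2 had 118, 75.4 and 100.4 CPM, against 5.18, 7.58 and 15.2 in injured cortex and 5.96, 7.01 and 13.8 in uninjured cortex. No culture overlapped a cortex library. Over injured cortex the log2 fold change was 3.70 ± 0.49 for Col4a1 (adjusted p 7.36e-05) and 3.39 ± 0.42 for Col4a2 (adjusted p 4.78e-05), and over uninjured cortex 3.96 ± 0.50 and 3.46 ± 0.42. The ratio of Col4a1 to Col4a2 per kb was 1.43 to 2.21 in cultures, 1.33 to 1.50 in injured cortex and 1.06 to 1.38 in uninjured cortex. Col4a5 was higher in cultures than in injured cortex, with a log2 fold change of 2.85 ± 0.60 (3.91 without injured replicate 3), and was not called against uninjured cortex (0.91 ± 0.56). In contrast to Col4a1 and Col4a2, Col4a4 was lower in cultures than in uninjured cortex (-2.88 ± 0.97, adjusted p 0.0215), a call lost without uninjured replicate 2 (adjusted p 0.0632), without uninjured replicate 3 (0.0697), without culture replicate 2 (0.087) or without culture replicate 3 (0.0696). Its log2 fold change was -1.18 with uninjured replicates 2 and 3 both left out. Without culture replicate 1 it was -5.03, which rests on 1 and 0 counts in the remaining cultures and is no measure of size. Its partner Col4a3, its neighbour on chromosome 1, was not called in either comparison.

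Of the multiplexins, basement membrane collagens that carry sugar chains, Col18a1, the source of the fragment endostatin, had 211, 90.4 and 107 CPM in cultures, against 1.08, 1.26 and 4.42 in injured cortex and 0.276, 1.44 and 2.44 in uninjured cortex. Cultures were above all cortex libraries, by log2 fold changes of 5.87 ± 0.68 (adjusted p 2.69e-05) and 6.63 ± 0.72 (adjusted p 9.63e-06), or 6.86 without injured replicate 3 and 7.24 without uninjured replicate 3. Col15a1, its close relative, went the other way, with 1.10, 0.861 and 0.703 CPM in cultures, against 2.69, 4.29 and 3.67 in injured cortex and 3.47, 3.37 and 2.44 in uninjured cortex. Its log2 fold changes were -1.98 ± 0.40 (adjusted p 0.00147) and -1.79 ± 0.40 (adjusted p 0.00211).

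Both short-chain network collagens that were tested were higher in cultures. Col8a1, a component of vascular and corneal matrix, had 130.4, 113 and 104 CPM in cultures, against 0.565, 0.366 and 1.05 in injured cortex and 0.331, 1.17 and 0.548 in uninjured cortex. The cultures were even, and the log2 fold changes were 7.38 ± 0.44 over injured cortex (adjusted p 1.52e-07) and 7.35 ± 0.44 over uninjured cortex (adjusted p 9.44e-08; 8.02 without uninjured replicate 2). Col10a1, known from hypertrophic cartilage, had 9.63, 7.52 and 6.64 CPM in cultures and 0 to 0.157 CPM in the 6 cortex libraries, with log2 fold changes of 6.91 ± 0.76 and 6.69 ± 0.76. The first was 8.23 without injured replicate 2 and 6.22 without injured replicate 3, and rests on 1, 3 and 0 counts in injured cortex.

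Type VI collagen, a beaded filament of 3 different chains, differed by chain. Col6a1 had 24.7, 13.2 and 13.2 CPM in cultures, against 0.188, 0.366 and 0.408 in injured cortex and 0.0552, 0.135 and 0.183 in uninjured cortex, with log2 fold changes of 5.68 ± 0.46 and 7.04 ± 0.52. Col6a2, its neighbour on chromosome 10, was higher by 3.79 ± 0.64 and 4.42 ± 0.67, the second of which was 5.43 without uninjured replicate 3. Col6a3 was higher than in injured cortex by 2.13 ± 0.53 (adjusted p 0.00585; 2.78 without injured replicate 3) and not called against uninjured cortex (1.12 ± 0.52, adjusted p 0.0768). Per kb of exon, the ratio of Col6a3 to Col6a1 was 0.187 to 0.216 in cultures, 1.73 to 3.11 in injured cortex and 12 to 12.7 in uninjured cortex, groups that did not overlap. Col6a1 rested on 1 to 3 counts per library in uninjured cortex, so the last of these ratios carries a large counting error.

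Of the 7 FACIT chains tested, Col12a1 was higher in cultures in both comparisons, 4 were lower and 2 were not called. Col12a1, which coats fibrils of type I collagen, had 26.6, 23.0 and 33.8 CPM in cultures, against 0.660, 0.523 and 0.782 in injured cortex and 0.110, 1.12 and 0.609 in uninjured cortex. It was higher by 5.38 ± 0.52 (adjusted p 6.74e-06) and 5.45 ± 0.53 (adjusted p 4.02e-06; 6.26 without uninjured replicate 2). The chains of type IX, known for coating cartilage fibrils, were lower in cultures. Col9a3 had 0.368, 0.230 and 1.64 CPM in cultures, against 18.3, 8.10 and 43.3 in injured cortex and 18.9, 17.7 and 20.8 in uninjured cortex, with log2 fold changes of -5.04 ± 0.71 (adjusted p 0.000129) and -4.76 ± 0.71 (adjusted p 0.000128). Without culture replicate 3 these were -6.25 and -5.96, and without injured replicate 3 the first was -4.22. Groups did not overlap. Col9a1 had 0 counts in all 3 cultures, and was at least 6.22-fold lower than in injured cortex and at least 16.1-fold lower than in uninjured cortex when 3 counts over the group stand for 0. Col9a2 had 1 count over the cultures and was 42.0-fold (95% counting interval 7.27 to 1685) and 14.7-fold (2.33 to 614) lower, and called in both comparisons, although against uninjured cortex it was not called without culture replicate 1 (adjusted p 0.0788), culture replicate 2 (0.0847) or uninjured replicate 3 (0.0697).

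Col20a1, another FACIT chain, had 0, 0.115 and 0.0781 CPM in cultures, against 3.02, 1.36 and 7.17 in injured cortex and 0.717, 0.135 and 0.670 in uninjured cortex. With 3 counts over the cultures, it was 66.9-fold lower than in injured cortex (95% counting interval 22.7 to 326) and 7.37-fold lower than in uninjured cortex (2.27 to 38.0). Against injured cortex the adjusted p was 0.000487, while against uninjured cortex it was 0.0359 and the call was lost without any 1 of the cultures (adjusted p 0.0524 to 0.116), without uninjured replicate 1 (0.0936) and without uninjured replicate 3 (0.0846). Col14a1 and Col16a1 were not called in either comparison.

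The remaining chains were low. Among transmembrane collagens, Col23a1 was higher in cultures, by 1.69 ± 0.54 (adjusted p 0.0221) and 1.45 ± 0.54 (adjusted p 0.0356), and Col13a1, with 1 count over the cultures, was lower in both comparisons. Col25a1, with 0, 4 and 0 counts in the cultures, was lower there than in uninjured cortex (-2.85 ± 1.013) and not called against injured cortex (-0.66 ± 1.11). Without culture replicate 2 the first was -6.64, which rests on 0 counts in cultures and is no measure of size. Of the others, Col7a1, the anchoring fibril chain, was higher in cultures, by 2.08 ± 0.61 (3.03 without injured replicate 3) and 1.74 ± 0.60, and Col26a1, with 2 counts over the cultures, was lower in both comparisons. Several of these calls were lost when 1 library was left out. Against injured cortex, Col23a1 was not called without culture replicate 1 or injured replicate 1 or 2 (adjusted p 0.117, 0.0667 and 0.0609), Col7a1 without culture replicate 1 (0.0541), and Col13a1 without any 1 of the cultures, injured replicate 1 or 3 or uninjured replicate 2 (0.0562 to 0.131). Against uninjured cortex, Col23a1 was not called without culture replicate 1 or uninjured replicate 1 or 2 (adjusted p 0.173, 0.1 and 0.12), and Col7a1 without culture replicate 1 or 3 or uninjured replicate 1 or 2 (0.0869, 0.0588, 0.0746 and 0.0828). Col25a1 was not called there without culture replicate 1 or 3 or uninjured replicate 2 or 3 (0.116, 0.112, 0.0672 and 0.0825), nor Col26a1 without culture replicate 2 or uninjured replicate 3 (0.0672 and 0.0529). With uninjured replicates 2 and 3 both left out, Col13a1 was not called against uninjured cortex either (-1.15, adjusted p 0.689).

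The other 9 genes, Col6a4, Col6a5, Col6a6, Col8a2, Col17a1, Col19a1, Col22a1, Col24a1 and Col28a1, did not pass the filter. Of them Col28a1, Col6a4 and Col6a5 had 0 counts in all cultures, and the highest uninjured values of these 3, 1.17, 0.404 and 0.314 CPM, were in uninjured replicate 2.

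**Figure D3:**
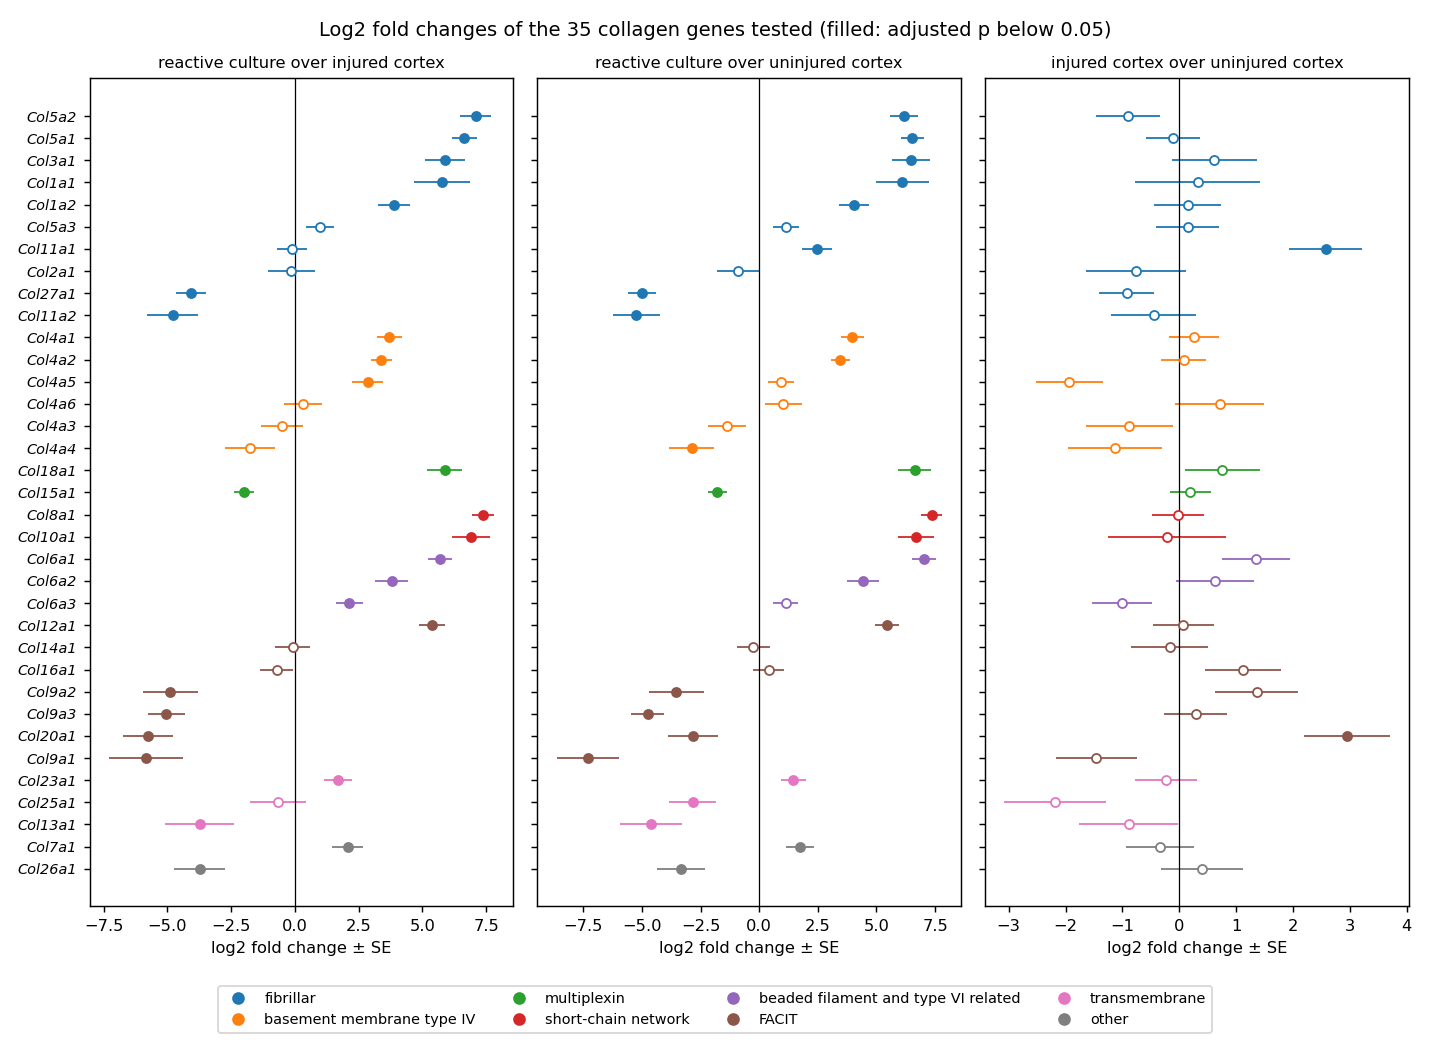
Log2 fold changes ± SE (edgeR) of the 35 collagen genes tested, coloured by subfamily, for cultures over injured cortex, cultures over uninjured cortex and injured over uninjured cortex. Filled points have an adjusted p below 0.05, and the right panel, where 2 points are filled, has a narrower axis. Fitted values of genes with 0 to 3 counts in a group, such as Col9a1, depend on the prior count and are no measure of size.

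The last comparison, injured with uninjured cortex, asks which genes differ among sorted cells after wounding. Col11a1 and Col20a1 were higher after injury, and no collagen gene was called lower. These 2 of 35 compare with 11.9% of all genes called, 8.99% higher and 2.87% lower. Of the 35, 5 had an unadjusted p under 0.05, where 26.2% of all genes did. The median collagen log2 fold change was 0.07, beside 0.00 for all genes. In 3 genes, Col6a1, Col11a1 and Col20a1, every injured library was above every uninjured library, and in 2 genes, Col9a1 and Col25a1, every injured library was below, where 16.1% and 12.5% of all genes, together 28.6%, did so.

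Col11a1, a type XI chain that builds the core of thin fibrils, had 1.74, 2.09 and 10.0 CPM in injured cortex, against 0.552, 1.03 and 0.731 in uninjured cortex. Its log2 fold change was 2.57 ± 0.64 with an adjusted p of 0.0209. Injured replicate 3 was 5.23 times the mean of injured replicates 1 and 2, and without it the log2 fold change was 1.27 (adjusted p 0.0462). Over 20 alternatives the adjusted p of Col11a1 ran from 3.55e-06 to 0.209, and the call was lost with limma-voom (0.0731), with the 2 groups alone (0.0656), with glmTreat (0.111), without uninjured replicate 1, 2 or 3 (0.0572, 0.0588 and 0.0786) and with uninjured replicates 2 and 3 both left out (log2 fold change 3.05, adjusted p 0.209).

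Col20a1 had 3.02, 1.36 and 7.17 CPM in injured cortex, against 0.717, 0.135 and 0.670 in uninjured cortex, groups that did not overlap. Its log2 fold change was 2.95 ± 0.75 with an adjusted p of 0.0242. Over 20 alternatives the adjusted p of Col20a1 ran from 3.94e-05 to 0.336, and the call was lost with the 2 groups alone (0.0514), with glmTreat (0.11), without injured replicate 1 (0.0570), injured replicate 3 (log2 fold change 2.10, adjusted p 0.0609), uninjured replicate 2 (0.0991) or uninjured replicate 3 (0.0640), and with both of these uninjured replicates left out (log2 fold change 2.41, adjusted p 0.336). Markers of oligodendrocyte precursors, a list chosen after the values were seen, were also highest in injured replicate 3. They summed to 652, 256 and 1366 CPM in injured cortex, against 506, 697 and 362 CPM in uninjured cortex, and 2 of 10 were higher and 0 lower after injury in edgeR, where 8.99% and 2.87% of all genes were. Their part in both results was not tested.

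The other abundant chains showed no call. Col4a1, at 14.9 ± 8.44 CPM in injured and 12.5 ± 6.34 CPM in uninjured cortex (SD, n = 3 each), had a log2 fold change of 0.26 ± 0.45, and Col9a3, at 23.2 ± 18.1 and 19.1 ± 1.55 CPM, one of 0.29 ± 0.55. Col27a1 had 17.4 ± 9.73 CPM in injured and 33.1 ± 16.9 CPM in uninjured cortex, a log2 fold change of -0.92 ± 0.48 with an adjusted p of 0.25. The fibrillar chains Col1a1, Col1a2 and Col3a1 had log2 fold changes of 0.32 ± 1.09, 0.15 ± 0.60 and 0.61 ± 0.75. All 3 were led by injured replicate 3, at 2.99, 9.51 and 5.27 CPM, while injured replicates 1 and 2 had 0.141 to 2.50 CPM, and their sign turned without that library (-2.43, -1.07 and -1.26). Without injured replicate 3, 5 collagen genes were called lower: Col5a2, Col27a1, Col11a2, Col6a3 and Col4a5. In the same fit 8.96% of all genes were called lower, against 2.87% with all libraries. Col4a5, at 0.377, 0.418 and 1.63 CPM in injured cortex against 1.27, 4.27 and 4.08 CPM in uninjured cortex, had a log2 fold change of -1.94 ± 0.59 and an adjusted p of 0.0537 with all libraries.

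Genes that modify, fold, export, trim and cross-link collagen chains were taken as a list of 31, of which 29 were tested. Against injured cortex 21 were higher in cultures and 3 lower, 82.8% called beside 50.1% of all genes (20% higher and 30.1% lower). Against uninjured cortex 23 were higher and 4 lower, 93.1% called beside 60.5% of all genes (27.5% higher and 33.1% lower). The list's median log2 fold changes were 1.54 and 2.14, beside -0.19 and -0.17 over all genes. Lox, the oxidase that starts collagen cross-links, had 248, 168 and 129 CPM in cultures, against 0.236, 0.627 and 0.748 in injured cortex and 0.386, 0 and 0.244 in uninjured cortex, with log2 fold changes of 8.35 ± 0.55 and 9.80 ± 0.62. P4ha2, a prolyl hydroxylase that stabilises the helix, was higher by 5.01 ± 0.29 and 4.54 ± 0.28. Crtap, a helper of prolyl 3-hydroxylation, was higher by 2.71 ± 0.18 and 2.88 ± 0.18, and Pcolce, an enhancer of the enzyme that removes the C-propeptide, by 3.70 ± 0.25 and 3.31 ± 0.25.

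Against the list, Pcolce2, Colgalt2 and P3h2 were lower in cultures in both comparisons. Pcolce2, a relative of Pcolce, had 2.76, 3.73 and 2.27 CPM in cultures, against 40.2, 30.6 and 40.7 in injured cortex and 52.0, 79.4 and 49.2 in uninjured cortex, log2 fold changes of -3.66 ± 0.28 and -4.35 ± 0.29. Colgalt2, which adds galactose to collagen, was lower, at 0 to 0.115 CPM in cultures, 1.65 to 6.22 CPM in injured cortex and 3.46 to 7.98 CPM in uninjured cortex, and P3h4 was lower against uninjured cortex (-1.38 ± 0.20). Between injured and uninjured cortex, Creb3l1 (1.30 ± 0.29), a transcription factor for collagen export, Sec24d (0.93 ± 0.26), a coat protein of export vesicles, and Colgalt1 (0.72 ± 0.21) were higher and P3h4 (-1.04 ± 0.20) was lower, 13.8% of the list called beside 11.9% of all genes. Without injured replicate 1 or uninjured replicate 2, 0 of this list were called higher.

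Of 16 receptors and collagen-cutting enzymes, 13 were tested. Against injured cortex 6 were higher in cultures and 3 lower, and against uninjured cortex 7 and 2, in each case 69.2% called, beside 50.1% and 60.5% of all genes. Mmp13, a collagenase of cartilage and wounds, had 501, 324 and 429 CPM in cultures, against 0.612, 0.784 and 0.136 in injured cortex and 0.110, 0.135 and 0 in uninjured cortex, with log2 fold changes of 9.75 ± 0.53 and 12.12 ± 0.63. Mmp8, the neutrophil collagenase, was higher by 3.77 ± 0.34 and 6.17 ± 0.39, and Itgb1, the shared beta chain of collagen-binding integrins, by 2.68 ± 0.28 and 3.31 ± 0.28. Adgrg1, a receptor that binds type III collagen, was lower (-3.46 ± 0.33 and -3.86 ± 0.33), as were Ddr1, a receptor kinase for collagen (-2.04 ± 0.42 and -2.41 ± 0.42), and, against injured cortex, the gelatinase Mmp9 (-3.97 ± 0.41). Between injured and uninjured cortex 4 were higher and 0 lower in edgeR's test, beside 8.99% and 2.87% of all genes. Of the 13, 8 had an unadjusted p under 0.05, beside 26.2% of all genes, and 2 were called lower by the Wald test of DESeq2. Those higher after injury were Mmp9 (3.62 ± 0.40), Mmp8 (2.39 ± 0.34), Mmp2 (1.64 ± 0.33) and Mmp14 (1.31 ± 0.22), with Mmp9 at 20.5, 16.5 and 14.4 CPM in injured cortex against 1.10, 1.75 and 1.28 CPM in uninjured cortex.

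Markers of the cells that can make collagen did not all move with it. Fibroblast markers, 10 genes, summed to 168, 110 and 106 CPM in cultures, against 83.3, 55.7 and 203 in injured cortex and 64.2, 62.8 and 63.5 in uninjured cortex, and of 8 tested 4 were higher and 1 lower in cultures than in injured cortex, where 20% and 30.1% of all genes were. The 4 were Fbln2, a matrix glycoprotein, at 54.7 to 128 TMM-normalised CPM in cultures, 0.680 to 1.94 in injured cortex and 0.993 to 1.52 in uninjured cortex, the proteoglycans Dcn (50.6, 29.4 and 15.2 on average in the same order of groups) and Lum (12.4, 4.50 and 4.93), and the retinoic acid enzyme Aldh1a2 (14.6, 2.44 and 1.27). Against uninjured cortex 4 of the 8 were higher and 2 lower, where 27.5% and 33.1% of all genes were. Pdgfra averaged 1.92, 44.8 and 6.91 TMM-normalised CPM in the same order of groups, and Slc6a13 2.83, 5.87 and 9.18, both lowest in cultures. Ogn and Fbln1 averaged lower in cultures than in uninjured cortex, at 1.21 against 3.48 and 6.56 against 9.83. Dpt and Igf2 had 0 counts in all cultures and 0 or 1 count in each cortex library. Mural markers summed to 2777, 2713 and 2500 CPM in cultures, against 550, 504 and 713 in injured cortex and 974, 1779 and 2207 in uninjured cortex. Acta2, the smooth muscle actin of contractile cells and myofibroblasts, led this sum, with 57005 of 60347, 63577 of 65939 and 39842 of 41676 mural counts in the cultures. It had 3113 to 3650 TMM-normalised CPM there, a scale that differs from that of the sums. Of the 10 mural genes 4 were higher and 5 lower than in injured cortex, where 20% and 30.1% of all genes were. Against uninjured cortex 3 were higher and 6 lower, where 27.5% and 33.1% were. In injured over uninjured cortex 0 mural genes were higher and 5 lower, where 8.99% and 2.87% of all genes were. Fibroblast genes had 1 higher and 1 lower call in that comparison, and endothelial genes 0 and 0. Vtn (4.31, 323 and 764 TMM-normalised CPM in the same order of groups), Kcnj8 (1.17, 29.2 and 83.9) and Rgs5 (18.8, 64.9 and 190) averaged lowest in cultures.

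Endothelial markers summed to 133, 104 and 102 CPM in cultures, against 306, 341 and 687 in injured cortex and 663, 262 and 666 in uninjured cortex. Of the 10 genes 0 were higher and 3 lower in cultures than in injured cortex, where 20% and 30.1% of all genes were. Against uninjured cortex 0 were higher and 5 lower, where 27.5% and 33.1% were. Ly6c1 (13.1 against 130 TMM-normalised CPM in injured cortex), Cldn5 (16.5 against 85.8) and Slco1a4 (0.284 against 38.6) averaged lower. Pecam1 (10.2 against 10.3), Flt1 (52.6 against 55.4) and Adgrl4 (22.6 against 19.9) averaged near level. Astrocyte markers summed to 75.3, 97.0 and 135 CPM in cultures, against 2582, 2780 and 5772 in injured cortex and 7810, 4677 and 7339 in uninjured cortex, and all 10 were lower in cultures in both comparisons. Oligodendrocyte markers summed to 315 to 607 CPM in cultures, 15950 to 19040 in injured cortex and 27550 to 43480 in uninjured cortex. Markers of microglia and macrophages summed to 4091 to 4819, 8178 to 12680 and 10130 to 11990 CPM, and markers of neurons, which the sort removed from cortex, to 22.1 to 56.3, 16.2 to 41.2 and 13.6 to 23.5 CPM in the same order of groups. In injured replicate 3, which led the collagen values, the fibroblast, mural, endothelial, astrocyte and oligodendrocyte precursor sums were each the highest among injured libraries. These sums are relative to library totals, without the TMM factors of 1.02, 0.938 and 1.39 for injured replicates 1 to 3. After TMM, the mural genes Vtn, Kcnj8 and Higd1b were lowest in injured replicate 3, and Rgs5, Abcc9, Myh11, Tagln, Notch3 and Pdgfrb highest. Acta2 lay between. Pdgfra, which marks both fibroblasts and oligodendrocyte precursors, held 2953 of the 4290 fibroblast counts there. It had 100.3 TMM-normalised CPM there, and 28.4 and 5.70 in the other injured libraries. Of the other fibroblast genes, Dcn, Lum and Aldh1a2 were lowest in injured replicate 3, and Fbln1, Fbln2, Slc6a13 and Ogn highest. The part of these cell types in the collagen values was not tested.

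**Figure D4:**
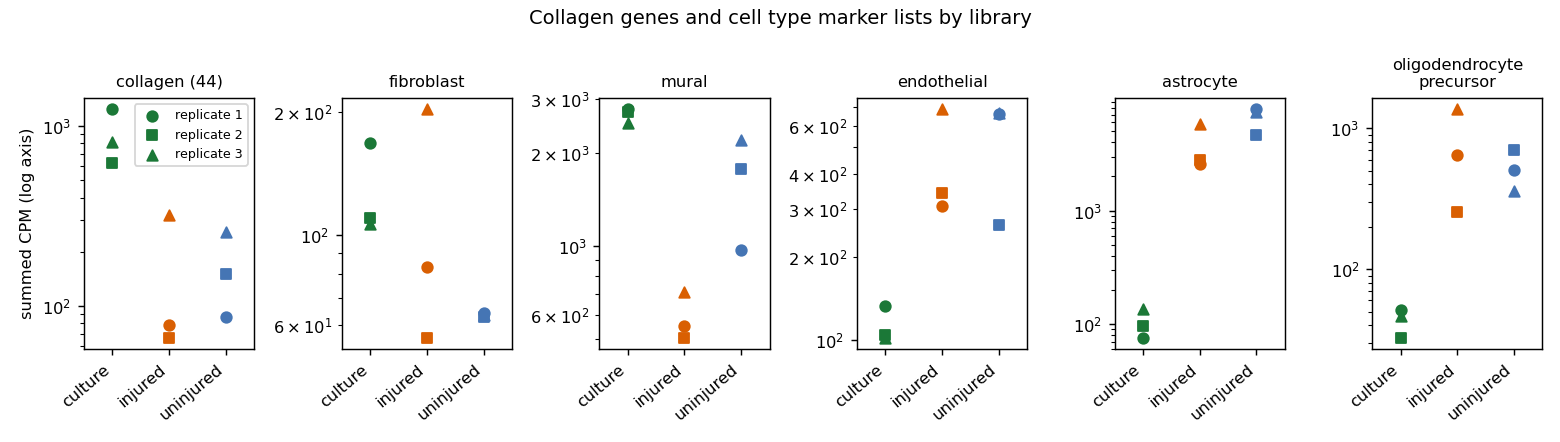
CPM summed over the 44 collagen genes and over 5 marker lists in each library (log axes), with the symbol giving the replicate number. Collagen is highest in cultures at 619.9 to 1238 CPM, whereas the endothelial, astrocyte and oligodendrocyte precursor sums are lowest there. Injured replicate 3 is the highest injured library in each panel. The sums leave out the TMM factors, which were 1.02, 0.938 and 1.39 for injured replicates 1 to 3. Pdgfra holds 2953 of the 4290 fibroblast counts of injured replicate 3.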

How the data were processed

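The deposited files hold whole-number counts per gene, made by the authors, for 9 libraries that the sample labels place in 3 groups of 3. Alignment was with HISAT2 to GRCm39, per the submitters' processing notes, which state no versions. How reads were assigned to genes, with which annotation and strand setting, is not given in the sources used here, so a gene and an antisense partner may share reads. At most 6.07% of a collagen gene's exon bases overlap another gene (Col9a3 with Tcfl5). Of 56748 genes, 18093 passed filterByExpr.

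The main analysis used edgeR 4.0.16 in R 4.3.3. Library sizes were scaled by TMM, all 9 libraries entered 1 quasi-likelihood fit with group means (6 residual degrees of freedom), and p-values were adjusted by Benjamini-Hochberg over every tested gene, with a threshold of 0.05. The method was tested on simulated data, and no outcome of that test is reported here. Gene levels are TMM-normalised CPM, and list sums are CPM of the library total. The members and lists were chosen with earlier results of these data known. Named collagen genes reached 20 CPM on average in a group, were called between injured and uninjured cortex, or were called against most of their subfamily. From the pathway lists, up to 4 genes per comparison with the smallest adjusted p were named, and called exceptions. Other genes named were chosen after their values were seen. Bounds put 3 counts in place of 0 over a group, and intervals cover counting error only.

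The 20 alternatives were DESeq2 1.42.0 (its size factors, and its Wald test), upper-quartile factors, limma-voom with limma 3.58.1, no filter, 1 CPM in 3 libraries, fits to 2 groups alone, glmTreat at a log2 fold change of 1, a replicate block, each library left out, and 2 settings chosen after seeing the data: uninjured replicates 2 and 3, or injured replicates 1 and 2, left out. In the last 2 settings 1 library stands for its group and its spread is taken from the other groups. The design text calls the replicates biological. Promoter sequences are from RefSeq on GRCm38.p6.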

Additional observations from a re-analysis of the deposited data

How the results depend on the processing

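For injured over uninjured cortex, 2 collagen genes were called higher and 0 lower. The higher count was 1 with limma-voom, 0 with the 2 groups alone, 0 with glmTreat, 0 to 2 with each library left out and 0 with uninjured replicates 2 and 3 left out. The lower count was 1 with DESeq2 size factors, upper-quartile factors, the DESeq2 Wald test and the replicate block, 3 without a filter and 0 to 5 with each library left out. Higher maturation genes, 3, were 1 with DESeq2 size factors, upper-quartile factors and limma-voom, 0 with the 2 groups alone and glmTreat, 0 to 5 with each library left out and 0 in both added settings. Lower ones, 1, were 2 by the DESeq2 Wald test, 0 with glmTreat and 0 with uninjured replicates 2 and 3 left out. Higher receptor and collagenase genes, 4, were 2 with glmTreat and in both added settings, and lower ones, 0, were 2 by the DESeq2 Wald test, 2 without a filter and 0 to 2 with each library left out. Of all genes, 1626 were higher and 519 lower: 1041 and 328 with the 2 groups alone, 661 and 24 with glmTreat, 420 and 42 with uninjured replicates 2 and 3 left out, 707 and 89 with injured replicates 1 and 2 left out, 855 to 2424 and 119 to 1678 with each library left out. Lower calls were 1247 by the DESeq2 Wald test and 911 without a filter.

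For cultures over injured cortex, 9 lower collagen calls were 5 with 1 CPM in 3 libraries, and all genes called, 3613 higher and 5444 lower, were 1265 and 3362 with glmTreat. For cultures over uninjured cortex, 11 lower collagen calls were 6 with 1 CPM in 3 libraries, with the 2 groups alone and with uninjured replicates 2 and 3 left out, and 6 to 13 with each library left out. All genes called, 4969 and 5985, were 2381 and 3969 with glmTreat and 3042 and 3954 with uninjured replicates 2 and 3 left out. The causes were not tested, except that fewer genes are tested at 1 CPM and fewer samples remain where libraries are left out.

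Signs turned in genes that were not called. For injured over uninjured cortex, leaving out each library in turn gave log2 fold changes of -0.33 to 0.70 for Col4a1, -0.25 to 1.36 for Col18a1, -1.26 to 1.22 for Col3a1, -0.50 to 0.51 for Col4a2 and -0.60 to 0.63 for Col8a1. The ranges were -0.67 to 0.32 for Col5a1, -1.07 to 0.56 for Col1a2, -2.43 to 0.77 for Col1a1, -0.55 to 0.69 for Col9a3 and -0.40 to 0.87 for Col12a1. With uninjured replicates 2 and 3 left out, Col5a2 was at 0.50, Col8a1 at 1.03, Col5a1 at 0.87 and Col27a1 at 0.15, and with injured replicates 1 and 2 left out Col5a2 was at 0.05 and Col8a1 at 0.53. Col4a2 was at -0.00 with DESeq2 size factors, -0.04 with upper-quartile factors and -0.01 by the Wald test, and Col12a1 at -0.05 with upper-quartile factors. With limma-voom Col8a1 was at 0.02, Col1a2 at -0.10 and Col1a1 at -0.82, and without a filter Col8a1 was at 0.01. Col11a1 in cultures over injured cortex was at 0.24 with limma-voom, 0.24 with the replicate block and -0.49 to 1.17 with each library left out, and was called higher without injured replicate 3 (adjusted p 0.0348).

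The correlation of same-numbered samples, with group means removed, ran from -0.088 to 0.353. For injured with uninjured cortex it was 0.151, -0.088 and 0.353, against -0.317 to 0.267 for samples of different number. With 3 samples a group these values cannot decide whether replicate numbers pair the samples. With the replicate block, Col4a5 was called lower in injured cortex (-2.03), Col6a3 and Col5a3 were called higher in cultures than in uninjured cortex (1.33 and 1.28), and among the uncalled Col1a2 (-0.15) and Col9a3 (-0.09) turned sign in injured over uninjured cortex. Upper-quartile factors moved the median of all genes by -0.13 for injured and by -0.20 for cultures over uninjured cortex, and higher genes made up 75.8% of the calls for injured over uninjured cortex, 64.0% with upper-quartile factors, 68.2% with DESeq2 size factors and 60.6% by the Wald test. Collagen genes under 1 CPM rest on few counts, and for them a difference may not be detectable at this depth.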
